A study of Mus musculus with 21 samples.

Results

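The genes described here are 10 markers of hippocampal astrocytes, namely Gfap, Aqp4, Slc1a2, Slc1a3, Aldh1l1, Gja1, Aldoc, S100b, Glul and Sox9. They were taken by symbol from the deposited table of gene counts, which lists 55487 genes, by a rule that uses no measured value. All 10 were found and all 10 were among the 18146 genes that passed the filter on low counts. The study asked whether stress in early life leaves lasting changes in the adult hippocampus, and measured polyA RNA by bulk RNA sequencing. All animals were male wild type C57BL/6 mice. In the maternally separated group (MS, 9 libraries) pups and dam were placed in different cages, the nest as a unit, for 4 hours daily between postnatal days 10 and 17, and the study's methods add that nesting material in their home cages was reduced. Mice of the standard rearing group (SR, 12 libraries) were left with the dam. Both groups were dissected at 10 weeks of age, so the values describe adult tissue long after the separation.

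Astrocytes are the glial cells that take up glutamate and potassium released by neurons, supply metabolic fuel and contact blood vessels with their endfeet. In the hippocampus they clear glutamate through the transporters EAAT2 and EAAT1, turn it into glutamine with glutamine synthetase and hand the glutamine back to neurons. The intermediate filament protein GFAP rises when astrocytes become reactive after injury or inflammation, and it also marks the radial stem cells of the dentate gyrus.

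Library totals ran from 17276810 to 24052716 counts in the 8 MS mice tested and from 18368519 to 26450808 in the 12 SR mice. The animal numbers form 7 runs of 3, called sets here, and a mouse is named by its set and its place in it, with sets A, B and C reared under MS and sets D, E, F and G under SR. The study's methods describe litters with 3 males that were later housed together, and the labels name no nest, so mice of a set may not be independent and p-values over mice may be too small. The library of MS mouse A2 lay 28.9 units from the median on the first principal component, against at most 13.0 units for any other library, and was left out of the fits. The study's methods report the removal of 1 outlier but do not name it. Its results give 9 MS and 12 SR mice, the same numbers as the libraries deposited. Whether A2 was the study's outlier is therefore not known, and the 8 MS mice tested here may differ from the study's. In A2 the summed level of 8 dentate granule cell markers was 74.1 CPM (counts scaled to library size after TMM normalization), against 280 to 598 in the other libraries, and the sum of 10 striatal neuron markers was 2568 CPM, against 178 to 951. The hippocampal label of A2 is therefore not borne out by its markers. In A2 Gfap stood at 144 CPM and Aqp4 at 88.2 CPM, below each other library, while Aldh1l1 (67.5 CPM), Aldoc (789 CPM) and Glul (1731 CPM) stood above each other library. Among the retained libraries MS mouse B1 and SR mouse E2 had the highest striatal sums, 951 and 611 CPM, with no other above 272 CPM. The summed level of 8 choroid plexus markers ranged from 53.1 to 4230 CPM in MS and from 28.9 to 4562 CPM in SR.

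None of the 10 astrocyte genes was called between MS and SR at an adjusted p under 0.05 by the quasi-likelihood test of edgeR with Benjamini-Hochberg adjustment over all genes tested. The same rule called 2 of 18146 genes, which is 0.011%. At an unadjusted p under 0.05 the test picked 1 of the 10 genes (Sox9, higher in MS), where 11.5% of all genes tested passed, 6.62% higher and 4.92% lower in MS. DESeq2 called 0 of the 10, against 0.966% of the genes to which it gave an adjusted p. The fitted log2 fold changes, with SR as the reference, ran from -0.09 for Slc1a2 to 0.17 for Sox9. Their median was 0.03, against 0.0008 over all genes tested, with 7 genes above 0 and 3 below. The MS and SR values overlapped for all 10 genes, and did not overlap for 0.011% of all genes. The 95% intervals of the fold changes reached no lower than 0.863 (Slc1a2) and no higher than 1.21 (Sox9). In tissue RNA of this kind, fewer cells of a type and less RNA per cell cannot be told apart.

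**Figure D1:**
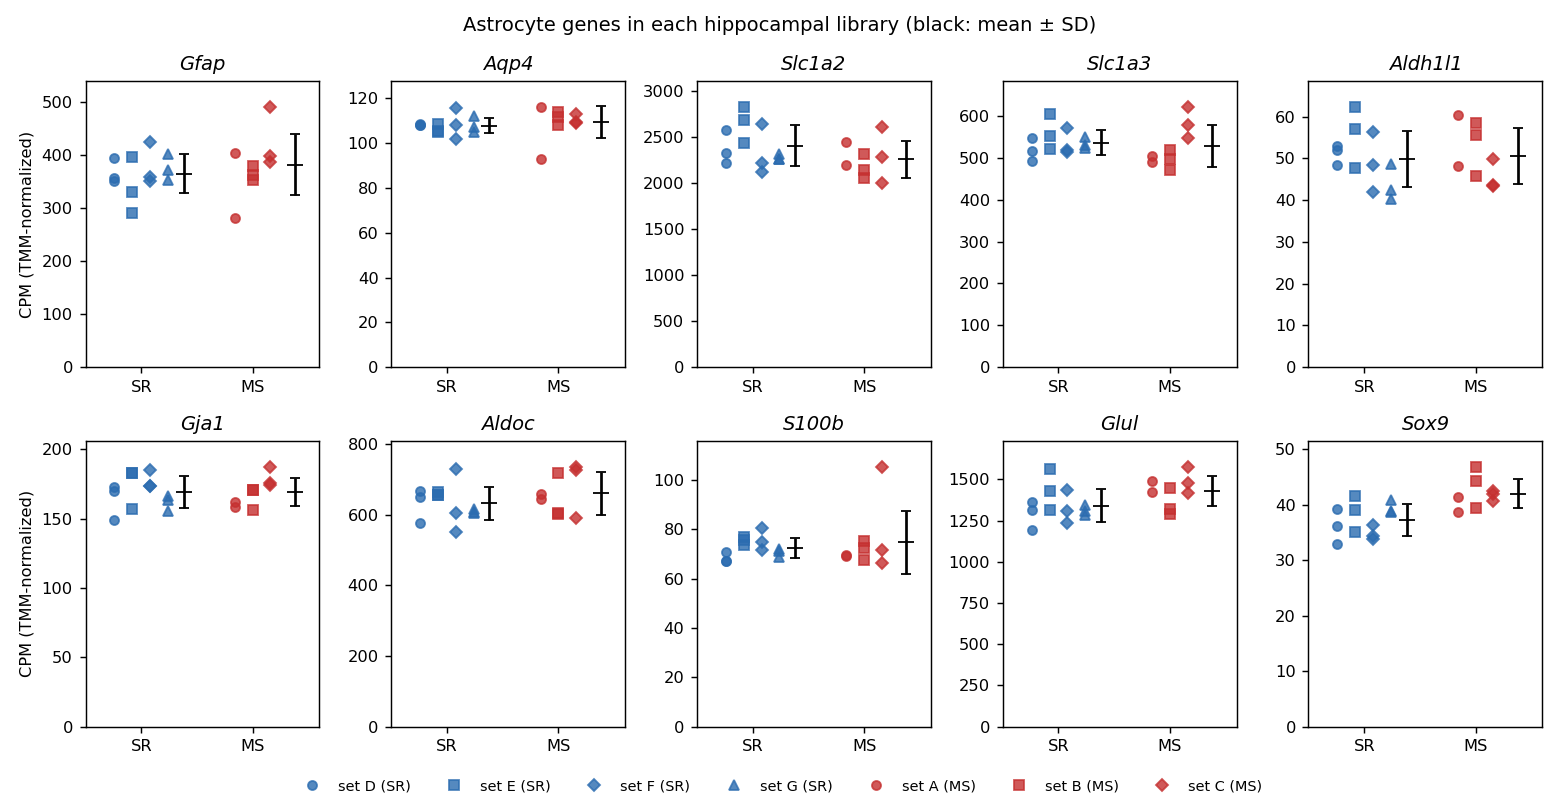
Level of each of the 10 astrocyte genes in CPM after TMM normalization (y axis, starting at 0) in the 12 SR mice (blue) and the 8 MS mice (red), with a symbol for each set of animal numbers and the mean ± SD in black. The MS and SR values overlap for every gene, the 8 MS mice lie above the SR median only for Sox9, and mouse C1 is the high point of S100b at 105.5 CPM.

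Sox9 (ENSMUSG00000000567, chr11:112782224-112787760, plus strand) encodes a transcription factor that most adult astrocytes express and that is needed in development for the switch from neurons to glia. Sox9 stood at 38.7, 41.6 and 46.8 CPM (lowest, median and highest) in MS and at 32.9, 37.6 and 41.5 CPM in SR. All 8 MS mice lay above the SR median and 4 of them above the highest SR mouse, while 7 of the 12 SR mice lay below the lowest MS mouse, so the groups overlapped in part. MS mice averaged 42.0 ± 2.63 CPM (SD, n = 8), against 37.2 ± 2.86 CPM (SD, n = 12) in SR. The edgeR log2 fold change was 0.17 with a standard error of 0.0470. The unadjusted p of 0.00123 ranked 138 among 18146 genes, and the adjusted p of 0.161 by edgeR's quasi-likelihood test missed the threshold. DESeq2 gave an adjusted p of 0.0570, and over 37 alternative fits the adjusted p lay between 0.0570 and 0.486, with log2 fold changes from 0.14 to 0.20. With the counts of each set summed, Sox9 had an edgeR log2 fold change of 0.17. In that edgeR fit its unadjusted p was 0.0105 and its adjusted p 0.486, and 0 of 21752 genes were called. The set means were 40.0, 43.5 and 41.7 CPM in the 3 MS sets and 36.1, 38.5, 34.8 and 39.5 CPM in the 4 SR sets. The lowest MS mean (set A, 2 mice) lay close to the highest SR mean (set G). How many of all genes have set means ordered in this way was not counted. With A2 included the log2 fold change of Sox9 was 0.16, and without B1 it was also 0.16.

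Gfap and S100b encode cytoplasmic proteins that serve as the classical labels of astrocytes in tissue sections, the first a filament protein and the second a calcium-binding protein that is also released from the cell. Gfap (ENSMUSG00000020932, chr11:102887336-102900912, minus strand) stood at 282, 383 and 490 CPM (lowest, median and highest) in MS and at 290, 357 and 424 CPM in SR. The MS mice held both extremes, A1 at the low end and C1 at the high end, and 6 of the 8 lay within the SR range. The means were 381.6 ± 58.3 CPM (SD, n = 8) and 364.5 ± 36.0 CPM (SD, n = 12), with an edgeR log2 fold change of 0.07, a standard error of 0.0757 and an adjusted p of 0.786. With A2 included the log2 fold change of Gfap was -0.04, and without set C it was also -0.04, so its sign depends on single animals or sets.

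S100b (ENSMUSG00000033208, chr10:76253853-76261159, plus strand) stood at 66.5, 70.5 and 105.5 CPM in MS and at 67.0, 71.9 and 80.6 CPM in SR. The highest MS value came from C1 and the next lay at 75.2 CPM, within the SR range, so that the spread of the MS group (SD 12.7 CPM, n = 8) exceeded that of SR (SD 4.03 CPM, n = 12). The log2 fold change was 0.04 with a standard error of 0.0650 and an adjusted p of 0.848 by edgeR. Without C1 it was -0.04. In C1 the correlation of log2 CPM with exonic length across genes was 0.451, the lowest of all libraries tested, against 0.474 to 0.492 in SR. With that correlation as a term in the fit the log2 fold change of S100b was -0.02.

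Aldh1l1 and Aldoc encode enzymes, a folate dehydrogenase that labels nearly all astrocytes and the brain form of the glycolytic enzyme aldolase. Aldh1l1 (ENSMUSG00000030088, chr6:90486427-90600203, plus strand) stood at 43.4, 49.0 and 60.3 CPM in MS and at 40.2, 48.6 and 62.3 CPM in SR, and all 8 MS values fell within the SR range. Its log2 fold change was 0.02 with a standard error of 0.0807, the widest of the 10 genes, and an adjusted p of 0.950 by edgeR. Aldoc (ENSMUSG00000017390, chr11:78322968-78327781, plus strand) stood at 590, 652 and 736 CPM in MS and at 553, 634 and 729 CPM in SR. The groups overlapped in 7 of 8 MS mice, and the log2 fold change was 0.06 with a standard error of 0.0521 and an adjusted p of 0.687 by edgeR.

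The glutamate genes comprised both transporters and glutamine synthetase. Slc1a2 (ENSMUSG00000005089, chr2:102658659-102790784, plus strand) encodes EAAT2, the transporter that clears most glutamate in the forebrain. Slc1a2 stood at 1999, 2237 and 2605 CPM in MS and at 2114, 2319 and 2824 CPM in SR. In MS 2 mice lay below the lowest SR mouse and 2 above the SR median. The mean was 2255 ± 202 CPM (SD, n = 8) against 2405 ± 223 CPM (SD, n = 12), a log2 fold change of -0.09 with a standard error of 0.0580 and an adjusted p of 0.559 by edgeR. Slc1a3 (ENSMUSG00000005360, chr15:8634124-8710764, minus strand) encodes EAAT1. It stood at 472, 513 and 622 CPM in MS and at 492, 527 and 604 CPM in SR, with MS mice both above and below the SR range. Its log2 fold change was -0.02 with a standard error of 0.0475 and an adjusted p of 0.910 by edgeR.

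Glul (ENSMUSG00000026473, chr1:153899944-153909723, plus strand) encodes glutamine synthetase, which joins ammonia to the glutamate that astrocytes have taken up. Glul stood at 1289, 1434 and 1578 CPM in MS and at 1196, 1315 and 1562 CPM in SR. In MS 7 of 8 mice lay above the SR median, although 7 also lay within the SR range. The mean was 1430 ± 92.2 CPM (SD, n = 8) against 1341 ± 98.0 CPM (SD, n = 12), a log2 fold change of 0.09 with a standard error of 0.0468, an unadjusted p of 0.0586 and an adjusted p of 0.455 by edgeR. A processed copy of Glul, Glns-ps1, shares 96.8% of bases over 1126 aligned bases with it and held 2 to 18 counts a library, against 23372 to 36995 for Glul, and how reads matching both were counted is not stated. Glul also shares 116 exonic bases with Teddm2 on the opposite strand, which had 24 to 75 counts a library.

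The level of Glul relative to Slc1a2 compares the RNA of glutamine synthetase with that of a glutamate transporter inside each library. Protein, glutamine synthesis and glutamate uptake were not measured. The ratio of Glul CPM to Slc1a2 CPM stood at 0.566, 0.623 and 0.789 (lowest, median and highest) in MS and at 0.490, 0.561 and 0.618 in SR. All 8 MS mice lay above the SR median, 5 of them above the highest SR mouse, and 7 of the 12 SR mice lay below the lowest MS mouse. On the log2 scale the MS ratio was -0.65 ± 0.14 (SD, n = 8), and the SR ratio -0.84 ± 0.085 (SD, n = 12). The difference of 0.19, or 13.8%, had p = 0.00031 in a two-sided exact permutation test over 125970 splits of the mice, and an adjusted p of 0.00124 over the 4 ratios tested. The adjustment does not cover the other pairs of the 10 genes. Slc1a2 had the lowest log2 fold change of the 10, and Glul the highest after Sox9. Neither gene was called by itself, and a ratio within a library does not show which of its genes moved. Over means of the 7 sets the difference was 0.18, with all 3 MS sets (-0.67, -0.68 and -0.62) above all 4 SR sets (-0.88, -0.88, -0.81 and -0.80). Its exact permutation p there was 0.0286, the smallest that 35 splits allow, and the adjusted p was 0.114. Leaving out each of the 20 mice in turn gave differences from 0.14 to 0.21, with 0.14 and an adjusted p of 0.00603 in the exact permutation test without C1, the mouse with the highest ratio.

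The animal numbers fall into a low range (sets A, B, D, E and F) and a high range (sets C and G). In the low range the log2 ratio of Glul to Slc1a2 was higher in MS by 0.18 (5 against 9 mice, exact permutation p = 0.0035). In the high range it was also higher by 0.18, but 3 against 3 mice gave p = 0.4 where 0.1 is the smallest possible in the exact permutation test. Without C1 the difference in the high range was 0.04 (2 against 3 mice, exact permutation p = 0.6, where 0.1 is the smallest possible), so its size there rested on that mouse. Markers of ependymal cells, the ciliated cells that line the ventricles, stood beside this difference. All 6 of the 7 listed ependymal markers that could be tested were fitted higher in MS, with a median log2 fold change of 0.56, none called and 3 at an unadjusted p under 0.05, against 6.62% of all genes tested. Their summed level was 14.8 to 83.3 CPM in MS and 18.4 to 47.5 CPM in SR, and Mia, the marker not tested, was at 0 in some libraries. With the mean log2 level of the ependymal list as a term the difference in the ratio was 0.14, with that of the choroid plexus list 0.17, and with the length correlation 0.16. The part of these measures in the difference was not tested.

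The other 3 ratios did not pass. The log2 ratio of Slc1a2 to Slc1a3 was lower in MS by 0.07 (exact permutation p = 0.208, adjusted 0.416). That of Gfap to Aldh1l1 differed by 0.03 (exact permutation p = 0.822) and that of S100b to Aldh1l1 by 0.007 (exact permutation p = 0.944).

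**Figure D2:**
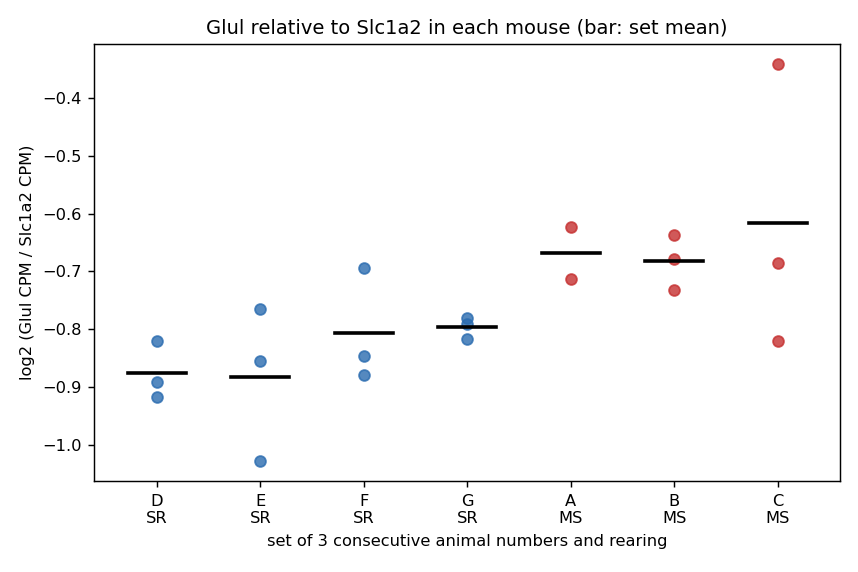
Log2 ratio of Glul CPM to Slc1a2 CPM (y axis) in each mouse by set of animal numbers (x axis), SR in blue and MS in red, with the mean of each set as a bar. The 3 MS set means, from -0.68 to -0.62, lie above the 4 SR set means, from -0.88 to -0.80, and C1 is the highest mouse at -0.34.

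The sequences before the start sites of these 2 genes are shown because theirs was the only ratio that passed the test over mice. Over set means it did not pass (adjusted p = 0.114 by exact permutation). Each window holds the 250 bases before a RefSeq start in GRCm38.p6, read 5′ to 3′ on the plus strand, chr1:153899679-153899928 for Glul and chr2:102706188-102706437 for Slc1a2. Capitals mark matches to the motifs searched on both strands.
Glul: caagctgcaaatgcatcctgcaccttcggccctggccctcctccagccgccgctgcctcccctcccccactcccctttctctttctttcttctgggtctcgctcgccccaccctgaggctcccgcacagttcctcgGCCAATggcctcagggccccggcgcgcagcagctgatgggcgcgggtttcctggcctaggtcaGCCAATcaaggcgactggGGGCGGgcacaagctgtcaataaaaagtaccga
Slc1a2: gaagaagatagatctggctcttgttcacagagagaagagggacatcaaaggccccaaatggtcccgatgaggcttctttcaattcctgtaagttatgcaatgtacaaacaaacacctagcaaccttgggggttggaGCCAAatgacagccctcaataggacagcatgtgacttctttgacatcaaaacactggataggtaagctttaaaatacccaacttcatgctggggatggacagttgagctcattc
The Glul window has 64.8% GC content and holds the CCAAT box (spelled as named) 113 and 50 bases before the start and the GC box (GGGCGG) 33 bases before it. The Slc1a2 window has 44.8% GC content and holds 1 match, to the nuclear factor I binding motif (TTGGC, here on the minus strand), which also overlaps both CCAAT matches of Glul. The RefSeq start used for Slc1a2 lies inside the gene as GENCODE M21 annotates it, so other start sites of the gene are not shown, and the window holds a short exon of another Slc1a2 transcript. The Glul window lies within an exon of a Teddm2 transcript on the opposite strand. Of 32851 promoter windows of this length, 33.8% hold CCAAT, 32.7% the GC box and 41.5% TTGGC. Neither window matched the TATA box (letters TATAAA, in 12.4% of windows), the STAT site (TTCNNNGAA, in 7.02%) or the SOX core (ATTGT, in 27.7%). The table of promoter windows held 8 of the 10 genes, without Sox9 and Aqp4.

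Gja1 and Aqp4 encode membrane channels, connexin 43, which couples astrocytes by gap junctions, and the water channel of the endfeet. Gja1 (ENSMUSG00000050953, chr10:56377330-56402513, plus strand) stood at 156, 170 and 187 CPM in MS and at 149, 171 and 185 CPM in SR. The mean was 169.2 CPM in MS against 169.3 CPM, for an edgeR log2 fold change of -0.0007, a standard error of 0.0429, a 95% interval of the fold change from 0.940 to 1.06 and an adjusted p of 0.997. Aqp4 (ENSMUSG00000024411, chr18:15389496-15410982, minus strand) stood at 92.8, 111 and 116 CPM in MS and at 102.01, 108 and 116 CPM in SR. All but 1 MS mouse lay above the SR median, and A1 lay below the SR range. The log2 fold change was 0.02 with a standard error of 0.0351, the smallest of the 10, and an adjusted p of 0.886 by edgeR. With A2 included it was -0.01.

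Compared per kilobase of exonic length, Glul was the highest of the 10 genes at 414 ± 31.1 CPM per kb (SD, n = 20 mice of both groups). Aldoc followed at 197 and Slc1a2 at 179 CPM per kb, and these neighbours overlapped, with Aldoc above Slc1a2 in 18 of 20 mice. Gfap lay at 88.0, Slc1a3 at 62.5 and S100b at 49.4 CPM per kb, each above the next in at least 19 mice. Aqp4 (17.4 CPM per kb) and Gja1 (16.5 CPM per kb) overlapped, with Aqp4 higher in 15 of 20 mice. Aldh1l1 (11.1 CPM per kb) stood above Sox9 (9.46 CPM per kb) in 17 mice. The order rests on the union of annotated exons, and counts per gene do not show which transcripts were used.

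Between sets of the same rearing group none of the 10 genes was called by edgeR, where 0.0331% of all genes were, and 9.09% had an unadjusted p under 0.05. Of the 10, Slc1a3 had the lowest unadjusted p, 0.0294 (adjusted p = 0.504 by edgeR). The MS effect did not differ between the low and high ranges of animal numbers at an adjusted p under 0.05 for any of the 10, nor for any gene tested (0% called, and 8.67% at an unadjusted p under 0.05). Slc1a3 was lower in MS by 0.11 on the log2 scale in the low range and higher by 0.13 in the high range, and the difference of 0.24 had an unadjusted p of 0.00891 and an adjusted p of 0.455 in edgeR. Gja1 showed -0.07 in the low range and 0.15 in the high range, a difference of 0.22 with an unadjusted p of 0.0158 and an adjusted p of 0.493 in edgeR. Sox9 showed 0.21 in the low range and 0.08 in the high range. Within either range alone edgeR called none of the 10, where it called 0.0496% of all genes in the low range and 0% in the high range. The median over the 10 genes was -0.006 in the low range and 0.14 in the high range, beside -0.001 and 0.002 over all genes. The high range holds only 3 MS and 3 SR mice, and its mouse C1 had the highest MS value of 5 of the 10 genes.

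**Figure D3:**
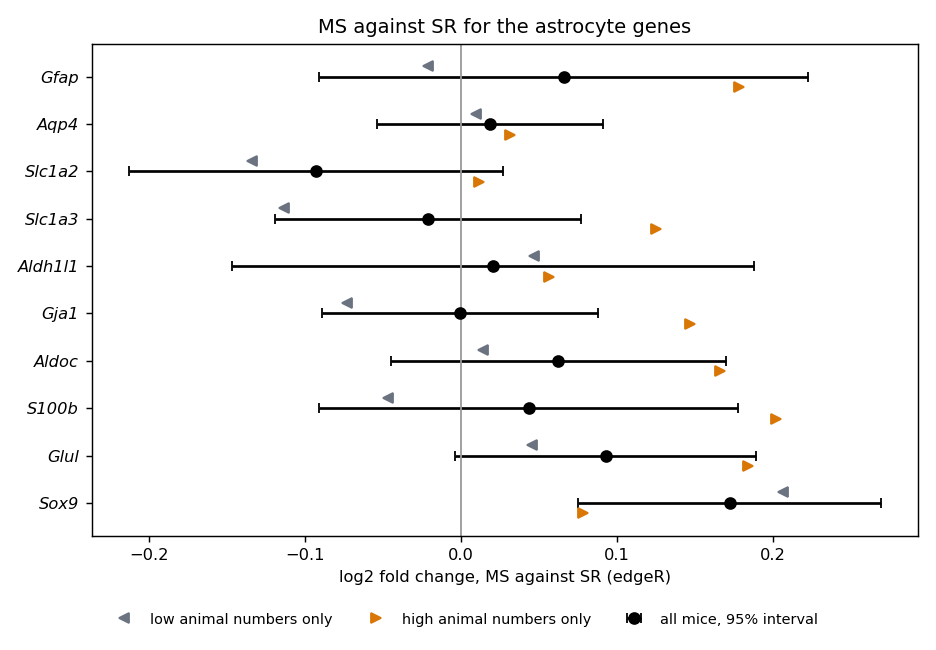
Log2 fold change of MS against SR (x axis) for each of the 10 astrocyte genes, with the edgeR estimate over 8 MS and 12 SR mice and its 95% interval in black and the estimates within the low (grey) and high (orange) ranges of animal numbers. The interval leaves out 0 for Sox9, whose adjusted p was 0.161, and 9 of the 10 intervals include 0.

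How the genes varied together from mouse to mouse was described by correlations of log2 CPM over the 20 mice after removal of the group means, with permutation p-values adjusted over all 45 pairs. Of the pairs, 8 had an adjusted p under 0.05, 5 positive and 3 negative. The positive pairs joined Glul with Gja1 (r = 0.68), Aldoc (r = 0.67) and S100b (r = 0.53), and S100b with Aldoc (r = 0.56) and Gja1 (r = 0.56). Spearman's rho for these was 0.65, 0.76, 0.49, 0.54 and 0.50 in the same order, and without the 2 mice farthest from the median r was 0.55, 0.68, 0.38, 0.60 and 0.43. Permutation p-values for r were 0.00139, 0.00179, 0.0082, 0.00232 and 0.00322, adjusted 0.0261, 0.0261, 0.0461, 0.0261 and 0.029. For rho the permutation p-values were 0.00312, 0.00016, 0.024, 0.0142 and 0.0199, and after adjustment the pair of Aldoc and Glul alone passed (0.0072). After removal of the length correlation as well, the 3 pairs with S100b no longer passed, at r from 0.36 to 0.44 with adjusted permutation p from 0.115 to 0.187.

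The negative pairs were Gfap with Aldh1l1 (r = -0.65, rho = -0.63), Gfap with Slc1a2 (r = -0.58, rho = -0.47) and Aqp4 with Aldh1l1 (r = -0.56, rho = -0.48). Their permutation p-values for r were 0.00151, 0.00817 and 0.00451, adjusted 0.0261, 0.0461 and 0.0338, and for rho 0.00411, 0.0418 and 0.0355, adjusted 0.0617, 0.123 and 0.123, so none of the 3 passed by rank. Without the 2 mice farthest from the median r was -0.73, -0.50 and -0.42. Within the low range of animal numbers (14 mice) r was -0.80, -0.72 and -0.64. Within the high range (6 mice) it was 0.41, -0.66 and -0.47. The sign for Gfap and Aldh1l1 was thus the other there, but 6 mice are too few to tell whether their relation differs. The 5 positive pairs had r from 0.47 to 0.65 in the low range and from 0.62 to 0.92 in the high range. Sox9 followed none of the others, with r between -0.14 and 0.21.

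**Figure D4:**
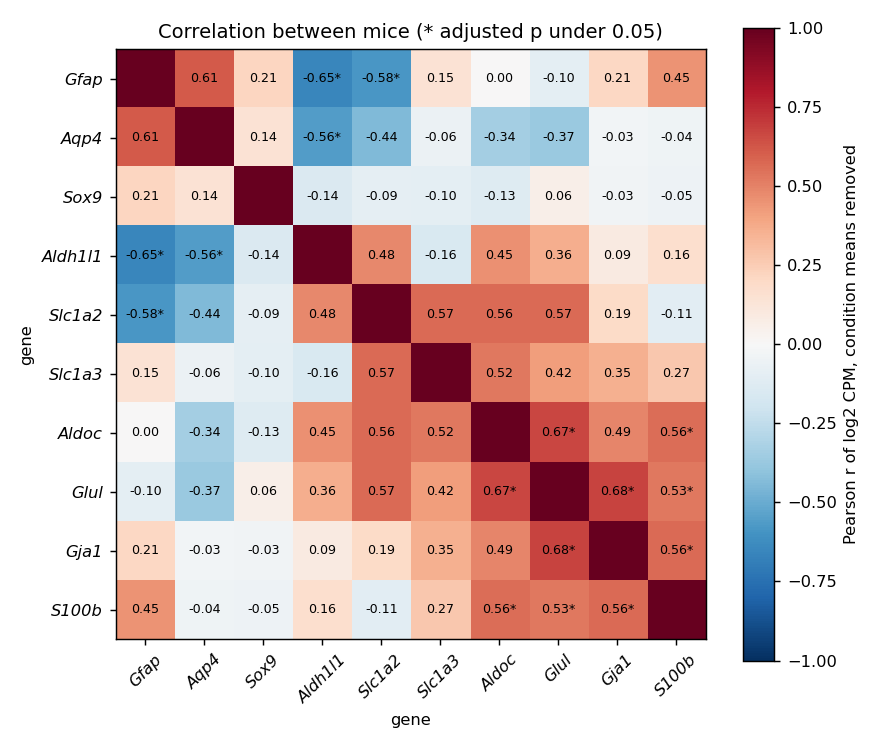
Pearson correlation (colour and number) of log2 CPM between each pair of the 10 astrocyte genes (both axes) over 20 mice after removal of the MS and SR means. Stars mark the 8 pairs with an adjusted permutation p under 0.05, 5 of them among Aldoc, Glul, Gja1 and S100b and 3 of them negative with Gfap or Aqp4.

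Marker lists of hippocampal subregions and neighbouring tissue moved with some of these genes, in 60 relations that were examined after the values had been seen. Gfap rose with the mean log2 level of 8 dentate granule cell markers (r = 0.85, rho = 0.88, n = 20), and Aldh1l1 fell with it (r = -0.85, rho = -0.81). Permutation p was 1e-05, the smallest that 100000 draws can give, for the r of Gfap and 3e-05 for that of Aldh1l1, adjusted 0.0003 and 0.00045, and for rho it was 2e-05 and 9e-05. Without the 2 mice farthest from the median of the dentate score, E2 and A1, r was 0.77 and -0.77. In the low range of animal numbers r was 0.87 and -0.89 (14 mice) and in the high range 0.46 and -0.31 (6 mice). The dentate markers summed to 280 to 537 CPM in MS and 289 to 598 CPM in SR, 7 of the 8 were fitted lower in MS, and none was at 0 in a library. Their part in the values of Gfap and Aldh1l1 was not tested.

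The transporters and Aldoc fell where markers of the ventricular lining were high. Slc1a2 was related to the ependymal list with r = -0.86 and rho = -0.89 (permutation p = 1e-05 for each, the smallest possible, adjusted 0.0003 and 0.0006), with r = -0.83 without C2 and E2. Within the low and high ranges r was -0.89 and -0.92. Slc1a3 was related to the choroid plexus list with r = -0.77 and rho = -0.72 (permutation p = 3e-05 and 0.0001, adjusted 0.00045 and 0.0015), with r = -0.59 without C2 and E1 and -0.74 and -0.75 within the ranges. Slc1a3 (r = -0.69) and Aldoc (r = -0.65) were also related to the ependymal list, and Aldoc to the choroid plexus list (r = -0.59). Aldh1l1 was related to the striatal list (r = 0.58) and S100b to the length correlation (r = -0.77). The adjusted permutation p-values of these 5 relations ran from 0.0162 to 0.0411. For these 5 relations, in that order, rho was -0.51, -0.66, -0.63, 0.61 and -0.49, with adjusted permutation p-values of 0.0891, 0.0221, 0.025, 0.0369 and 0.13, so the first and last did not pass by rank. Without the 2 farthest mice r was -0.62, -0.63, -0.52, 0.57 and -0.53. In the low range of animal numbers r was -0.71, -0.78, -0.66, 0.55 and -0.26, and in the high range -0.90, -0.33, -0.36, 0.52 and -0.91. No gene was related to the 10 oligodendrocyte markers at an adjusted permutation p under 0.05, and Sox9, Gja1 and Aqp4 to none of the 6 measures by r or by rho. By rho alone 4 more relations passed, among them Gfap with the striatal list (rho = -0.75, adjusted permutation p = 0.00264) and Glul with the ependymal list (rho = -0.61, adjusted permutation p = 0.0369).

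The genes whose log2 CPM followed each of the 10 most closely over the 20 mice, again after removal of group means, are given as a description. For Gja1 the closest was Hepacam, an astrocyte adhesion protein (r = 0.83), and for Aldoc they were Nkain4, Gpr37l1, an astrocyte receptor, and Plpp3, a lipid phosphatase of astrocytes (r = 0.86, 0.85 and 0.85). For Slc1a3 the closest was Elovl2, an enzyme of long fatty acids (r = 0.85). Gfap had Wscd1, Gmpr and Otub1 (r = 0.95, 0.93 and 0.93), Aldh1l1 had Abcb9, Kcnk3 and Ovol2 (r = 0.94, 0.91 and 0.91) and S100b had the ribosomal protein genes Rpsa and Rpl19 (r = 0.93 and 0.92). Slc1a2 was followed by Dab2ip (r = 0.90), Glul by Tnk2 (r = 0.90) and Aqp4 by Zfp281 (r = 0.80). Sox9 had the weakest partner, Prkag2os2 (r = 0.77).

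Other astrocyte genes were read from 5 lists, and edgeR called 0 of their members, where it called 0.011% of all genes tested. Of 37 other astrocyte markers 24 were fitted higher and 13 lower in MS with a median log2 fold change of 0.02, and 5 higher and 1 lower (16.2% in all) had an unadjusted p under 0.05, against 11.5% of all genes tested. Mlc1, a membrane protein of endfeet, showed 0.09 (unadjusted p = 0.0152), Mfge8, a secreted bridge to phagocytes, showed 0.14 (unadjusted p = 0.0164), and Apoe, the lipid carrier, showed 0.14 (unadjusted p = 0.0283) in edgeR. Tril, a co-receptor of innate immunity, showed -0.11 (unadjusted p = 0.0298), and Ntsr2, a neurotensin receptor, showed -0.07. Kcnj10, the potassium channel Kir4.1, showed -0.03 and Gjb6, connexin 30, showed 0.15.

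Of the 19 matched genes of the glutamate and glutamine cycle 13 were fitted higher and 6 lower, none with an unadjusted p under 0.05 in edgeR. Slc38a2, a glutamine transporter, showed a log2 fold change of 0.13 with an unadjusted p of 0.0503, Slc38a3, the glutamine exporter of astrocytes, 0.12, and Got1, a cytosolic transaminase, 0.03. Got2, its mitochondrial partner, showed -0.04.

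Of 35 tested genes linked to reactive astrocytes 23 were fitted higher and 12 lower with a median log2 fold change of 0.07, and 4 (11.4%) had an unadjusted p under 0.05, all higher, against 11.5% of all genes tested and 6.62% in that direction. Hspb1, a small heat shock protein, averaged 11.2 ± 1.86 CPM (SD, n = 8) among MS mice, against 7.70 ± 2.41 CPM (SD, n = 12). Its log2 fold change of 0.54 had an adjusted p of 0.189 by edgeR and 0.0494 by DESeq2. Emp1, an epithelial membrane protein, showed 0.46 at 2.28 against 1.65 CPM. Vim, the filament partner of Gfap, showed 0.11 and Serpina3n, a protease inhibitor of reactive astrocytes, -0.005, while Clcf1, a cytokine, showed -0.27 and Iigp1, an interferon-induced GTPase, -0.24. Lcn2 and Cxcl10 had too few counts to be tested.

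Of 19 genes of coupling, endfeet and ion homeostasis 2 higher and 2 lower had an unadjusted p under 0.05, against 6.62% higher and 4.92% lower among all genes tested. Ezr, which links membrane to actin in fine astrocyte processes, showed a log2 fold change of 0.27, and Dmd and Dtna, of the dystrophin complex that anchors Aqp4 at endfeet, showed -0.08 and -0.07. Of 23 transcription factors 4 higher and 2 lower passed that mark, against the same background. Nfix, a nuclear factor I member, averaged 342 ± 16.5 CPM (SD, n = 8) among MS mice, against 372 ± 15.1 CPM (SD, n = 12). Its log2 fold change of -0.12 had an adjusted p of 0.161 by edgeR and 0.0247 by DESeq2. Npas3 showed -0.14, Sox2, a factor of stem cells and astrocytes, 0.16 and Id1, an inhibitor of differentiation, 0.27.

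Lists of other cell types gave the setting of these values. The 8 choroid plexus markers were all fitted higher in MS, with a median log2 fold change of 0.90 and none called. The 10 striatal neuron markers were all fitted higher as well, with a median of 0.47, but this rested on MS mouse B1: without B1, 1 of the 10 was fitted higher and the median was -0.46. That fit still held SR mouse E2, which had the highest SR sum of these markers, 611 CPM. Over left-out mice the median ran from -0.46 to 0.77, so its direction depends on single mice. Of the striatal markers, Sh3rf2 was at 0 in some libraries. Of 10 general neuron markers 9 were fitted lower with a median of -0.07, 3 of them at an unadjusted p under 0.05, against 4.92% of all genes tested. The 8 microglia markers had a median of 0.08 and the 10 oligodendrocyte markers a median of 0.02. With the choroid plexus score as a term in the fit the log2 fold change of Sox9 was 0.15. In that edgeR fit its unadjusted p was 0.00568 and its adjusted p 0.380, and 0 of 18146 genes were called. The part of the tissue markers in the values of the astrocyte genes was otherwise not tested.

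**Figure D5:**
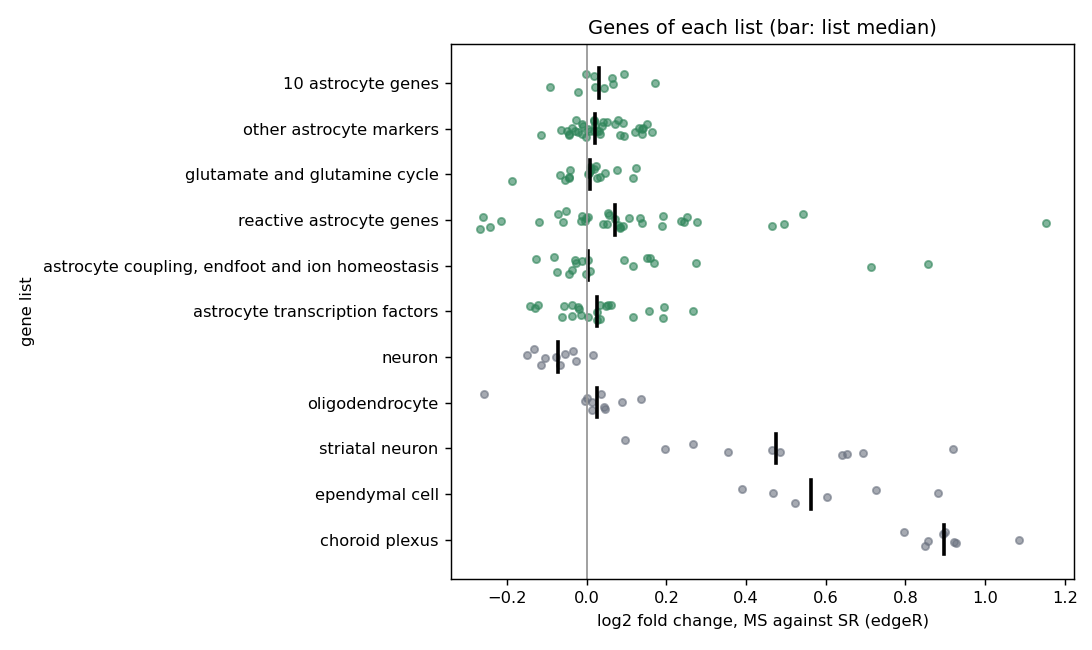
Log2 fold change of MS against SR (x axis) of each tested gene (points) in the 10 astrocyte genes, the 5 other astrocyte lists (green) and 5 lists of other cells (grey), with the median of each list as a bar. The astrocyte medians lie between 0.004 and 0.07, and the choroid plexus, ependymal and striatal lists lie to the right with medians of 0.90, 0.56 and 0.47. The striatal median turns to -0.46 without MS mouse B1 and ranges up to 0.77 over left-out mice.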

How the data were processed

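Whole hippocampi were snap frozen, RNA was extracted with Trizol and polyA libraries were made with a directional kit (NEBNext Ultra II). Per the labels the reads were aligned with STAR 2.7.3a to GRCm38 and counted with featureCounts. The deposited values are raw counts per gene, whole numbers without normalization. The strand setting and the treatment of reads with several matches are not given in the sources used here, so overlaps with antisense genes and near copies are uncertain. Gene names and exonic lengths came from GENCODE M21, which had an entry for 55227 of 55487 genes listed, and promoter windows from RefSeq.

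The genes and lists were fixed by symbol, with earlier results of these data known. Groups were taken from the labels. The library farthest from the median on the first principal component (500 most variable genes) was left out, which left 20. Genes were kept by filterByExpr (minimum count 10), scaled by TMM and fitted with edgeR 4.0.16 (robust quasi-likelihood, R 4.3.3), with Benjamini-Hochberg adjustment and a threshold of 0.05. The common biological coefficient of variation was 13.3%. CPM were scaled by TMM, and log2 CPM used a prior count of 2. Counts carry counting error, and the thinnest value of the 10 genes was 657 counts. DESeq2 1.42.0 and limma 3.58.1 gave alternatives, as did other filters, scalings, covariates, summed sets and left-out mice or sets. Ratios of CPM were compared by two-sided exact permutation tests, and correlations by 100000 permutations within groups (SciPy 1.17.1). Near copies were sought with BLAST+ 2.17.0. The fits were tested on simulated data. The genes named beyond the 10 were, for each astrocyte list, the 2 with the smallest p in each direction, any called, and Apoe, Kcnj10, Gjb6, Vim, Serpina3n and Slc38a3 by choice, and for each of the 10 its most similar genes. One gene that this rule names is not reported here.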

Additional observations from a re-analysis of the deposited data

Results flagged for a closer look

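A single mouse stood far from the other MS mice in 3 of 14 sets of MS values examined by Dixon's rule for 8 samples, which chance alone triggers in about 1 in 20 groups. The 14 sets come from the same 8 mice, and the ratios among them are built from the same genes. They are not independent, so 3 of 14 cannot be set against that rate. MS mouse A1 had the lowest Aqp4 level at 92.8 CPM, where the next mouse lay at 108 CPM. MS mouse C1 had the highest S100b level at 105.5 CPM, where the next lay at 75.2 CPM. C1 also had the highest log2 ratio of Glul to Slc1a2 at -0.34, where the next lay at -0.62. C1 held the highest MS value of 5 of the 10 genes (Aldoc, Gfap, Gja1, Glul and S100b), the lowest of Slc1a2 and the lowest correlation of log2 CPM with exonic length, 0.451. The SR group of 12 mice was too large for the rule.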

How the results depend on the processing

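The count of astrocyte genes called was 0 in each of 37 alternative fits, and their median log2 fold change ranged from -0.01 to 0.05 over the fits that left out a mouse or set. Over all genes the fits called from 0, as with limma-voom or summed sets, to 340 of 18561 without set C. A count of 0 of 10 is thus near the share over all genes. Slc1a2, Aldoc, Glul and Sox9 kept their direction in all 37. With all 21 libraries the log2 fold change turned to -0.038 for Gfap and -0.013 for Aqp4, the log2 ratio of Gfap to Aldh1l1 to -0.17 and of S100b to Aldh1l1 to -0.015, and 15 correlated pairs passed. The choroid plexus term turned Slc1a3 to 0.035 and Gja1 to 0.023, and the length term turned S100b to -0.018. Over left-out mice and sets the log2 fold changes ranged from -0.036 to 0.115 for Gfap, -0.112 to 0.030 for Slc1a3, -0.040 to 0.104 for Aldh1l1, -0.053 to 0.024 for Gja1 and -0.045 to 0.076 for S100b. Over left-out mice the log2 ratio differences ranged from -0.025 to 0.133 for Gfap to Aldh1l1 and from -0.068 to 0.058 for S100b to Aldh1l1, and S100b to Aldh1l1 was -0.014 over set means. The difference of Glul to Slc1a2 was 0.18 over set means, with an adjusted p of 0.114 by exact permutation, since 7 sets allow few splits. DESeq2 called 2 of the 111 genes of the astrocyte lists to which it gave an adjusted p (Hspb1 and Nfix). Of the cell type lists it called 2 of 93 (Syt1 and Grin1), against 0.966% of all genes with an adjusted p. By edgeR 0 of each list were called, beside 0.011% of all genes tested. Without the low-count filter the test between sets called 2 of the 10 (Gfap and Aldh1l1), where it called 5.1% of the 39023 genes it tested. The cause of these changes was not tested. The alternatives with the length correlation removed, within ranges of animal numbers, without C1, with list medians over left-out mice and with marker scores were added after the data had been seen. Removing the length correlation left 10 correlated pairs, 5 of them among the 8, and leaving out C1 left 8, of which 4 were the same. No paired analysis was possible because the replicate numbers of MS and SR do not link mice in the labels.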
